A study of Mus musculus with 29 samples.

Results

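Macrophages and dendritic cells in the early pregnant mouse uterus were followed here through 10 genes that these cells are known for: Csf1r, Adgre1, Cd68, Mrc1, Fcgr1, C1qa, C1qb, C1qc, Itgax and Ccr2. The members are all non-control array probes whose listed gene name, or current symbol through the probe's accession, is one of these 10. They came to 16 probes of 41174 and 10 genes of 27670 named on the array. Adgre1 is listed on the array under its older symbol Emr1. For 5 of the genes there was 1 probe, for 4 there were 2 and for Csf1r there were 3; the brightest probe stood for the gene, and the other probes are described beside it.

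The samples were whole uteri of CD-1 mice, an outbred strain, from females that had been given corn oil (CON) or genistein, an isoflavone of soy that binds oestrogen receptors, (GEN) at a daily dose of 50 mg/kg from postnatal day 1 to day 5. Uteri were collected in pregnancy on gestation day (GD) 1.5, 3.5, 4.5 or 5.5, and total RNA was labelled with Cy3 and hybridised to 29 one-colour arrays. CON and GEN each gave 3 samples for GD3.5 and 4 for both GD4.5 and GD5.5, and for GD1.5 there were 3 of CON and 4 of GEN. The labels do not say that the samples of a group came from separate animals, so p-values measure the spread between samples. All 6 uterine genes checked (Pgr, Esr1, Hoxa10, Hoxa11, Hand2 and Foxa2) were well above background on every array.

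Csf1r encodes the receptor of colony-stimulating factor 1, on which most tissue macrophages depend for survival, and Ccr2 the receptor that brings blood monocytes into tissues. C1qa, C1qb and C1qc encode the chains of C1q, the recognition molecule of the classical complement pathway, which macrophages and immature dendritic cells make. Fcgr1 encodes the high-affinity receptor for IgG, Mrc1 the mannose receptor of resident macrophages, Cd68 a glycoprotein of lysosomes, Adgre1 the F4/80 antigen, and Itgax the integrin CD11c of dendritic cells and some macrophages. In the rodent uterus macrophages and dendritic cells lie in the stroma and in the muscle wall, and their numbers and positions are known to shift around mating and implantation.

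The probes for 2 of the C1q chains are shown because these genes gave some of the widest differences between days, and a probe's letters show which part of the transcript was read. Both lie in the protein-coding part, on the minus strand of chromosome 4 in the array's mouse build (mm7), at chr4:136274931-136274990 for C1qa and chr4:136259100-136259159 for C1qb.
C1qa: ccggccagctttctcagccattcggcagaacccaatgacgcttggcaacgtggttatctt
C1qb: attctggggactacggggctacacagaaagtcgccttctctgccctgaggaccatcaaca

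The C1q genes are neighbours. In RefSeq's annotation of build GRCm38.p6 they lie in the order C1qb, C1qc, C1qa on the minus strand within 18719 bases at chr4:136880126-136898844. Of the 10 genes, 7 had an entry in the RefSeq promoter table of that build, which gives 250 bases before and 50 after each start site. The stretches of 250 bases before the start are shown for C1qb and C1qc, whose levels differed between days together, and for Mrc1. Mrc1 was the only one of the 10 that passed the test as lower at GD5.5 than at GD4.5 in both exposures. In GEN it did not pass under every setting, as given below. Capitals mark GAGGAA on either strand (TTCCTC where it lies on the other strand), the core of the sites bound by the myeloid factor PU.1.
C1qb (chr4:136886201-136886450, minus strand): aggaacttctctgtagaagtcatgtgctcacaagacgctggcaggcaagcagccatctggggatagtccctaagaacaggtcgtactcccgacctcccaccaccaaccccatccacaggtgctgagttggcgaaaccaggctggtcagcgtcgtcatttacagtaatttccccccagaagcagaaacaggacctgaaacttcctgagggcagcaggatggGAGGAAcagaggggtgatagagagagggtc
C1qc (chr4:136892915-136893164, minus strand): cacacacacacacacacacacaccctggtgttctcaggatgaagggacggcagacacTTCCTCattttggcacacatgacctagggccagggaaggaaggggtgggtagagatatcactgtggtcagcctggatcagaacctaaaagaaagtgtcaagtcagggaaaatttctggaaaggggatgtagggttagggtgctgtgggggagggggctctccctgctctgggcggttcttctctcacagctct
Mrc1 (chr2:14229164-14229413, plus strand): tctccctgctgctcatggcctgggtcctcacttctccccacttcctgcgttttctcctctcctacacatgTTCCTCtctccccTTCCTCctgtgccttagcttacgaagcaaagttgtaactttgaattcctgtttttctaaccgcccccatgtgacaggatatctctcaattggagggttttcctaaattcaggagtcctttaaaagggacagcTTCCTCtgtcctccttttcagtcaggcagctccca

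GAGGAA was found in the windows of 5 of the 7 genes (Mrc1, Fcgr1, C1qb, C1qc and Cd68), against 28.3% of the 32851 windows in the table. Mrc1 held 3 matches, at -180, -167 and -35 from the start site; 0.685% of all windows held 3 or more. In C1qb the match began at -30 and in C1qc at -193. Of the other motifs searched on both strands, TTGCNNAA was in 1 of the 7 windows (Cd68) against 10.8% of all windows, and TGCTGAC, a pair of GAAA with 2 bases between, and TATAAA were in none of the 7, against 4.67%, 3.44% and 13.6%. A match is a description of the letters and not a site of binding.

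All levels below are log2 intensities relative to the 75th percentile of the same array, so 0 is that percentile and a step of 1 is a doubling; levels of different genes come from different probes and are not set against each other. The brightest probe of all 10 genes was well above background on all 29 arrays. The 29 arrays lay on 8 slides, with GD1.5 and GD3.5 on slides 1 to 4 and GD4.5 and GD5.5 on slides 5 to 8, so the step from GD3.5 to GD4.5 cannot be told apart from a change of slides and no test crosses it. Within a group, pairs of arrays had r = 0.966 to 0.995 over all probes. In whole uterus RNA, fewer cells of a type and less RNA of a gene per cell cannot be told apart.

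**Figure D1:**
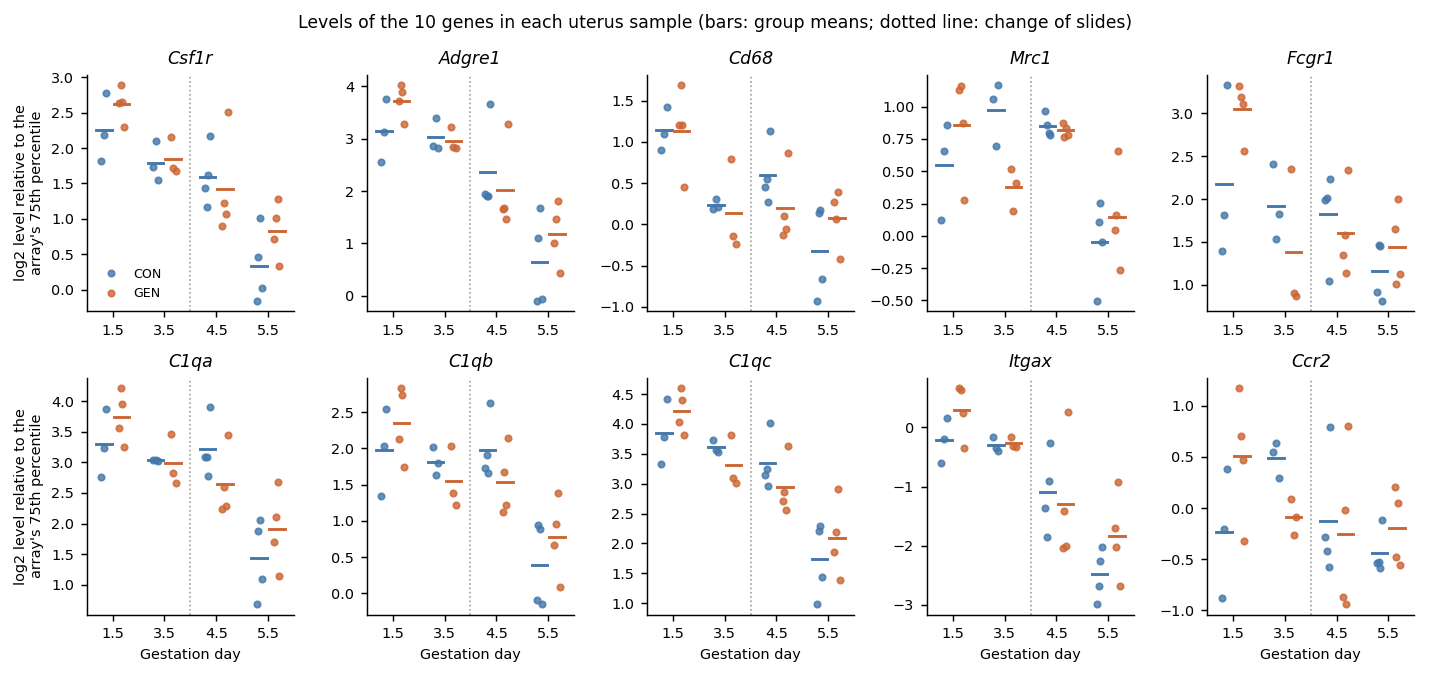
Level of each gene (log2 relative to the array's 75th percentile, vertical axis, own scale for each gene) against gestation day in CON (blue) and GEN (orange) uteri. Each point is 1 array, bars are group means, and the dotted line marks the change of slides; C1qa at GD5.5 in CON lies at 0.69 to 2.06, under all 4 CON arrays of GD4.5.

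The widest differences lay between GD4.5, when the uterus is receptive and the blastocyst attaches, and GD5.5, when the implantation site is established. In CON uteri 8 of the 10 genes fell between these days: C1qa, Adgre1, C1qc, C1qb, Itgax, Csf1r, Cd68 and Mrc1. Over all 21675 genes tested by limma's moderated t with Benjamini-Hochberg adjustment, 30.1% were called at an adjusted p under 0.05, 14.0% as lower and 16.0% as higher, and the median difference of all genes was 0.02. The median difference of the 10 genes was -1.32. In the same 8 genes each CON array of GD5.5 lay below each CON array of GD4.5; 27.2% of all genes tested had such groups in either direction.

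C1qa in CON uteri read 3.09, 3.08, 2.78 and 3.90 at GD4.5 (replicates 1 to 4) and 0.69, 1.87, 2.06 and 1.10 at GD5.5. The groups lay apart, and the 4 arrays of GD5.5 spread more widely than those of GD4.5. C1qa was 3.44-fold lower at GD5.5, a log2 difference of -1.78 (SE 0.36, adjusted p = 0.000722 by limma). C1qb read 1.73, 1.91, 1.67 and 2.62 at GD4.5, then -0.09, 0.94, 0.88 and -0.14 at GD5.5. For C1qb the difference was -1.58 (SE 0.34, adjusted p = 0.0013 by limma). Replicates 1 and 4 of GD5.5 lay under the other pair, as they did for C1qa. C1qc lay between 2.96 and 4.02 at GD4.5 and between 0.99 and 2.29 at GD5.5, a difference of -1.61 (SE 0.34, adjusted p = 0.00113 by limma). The 3 chains of C1q thus fell by similar amounts in CON uteri.

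Csf1r, the receptor of the macrophage growth factor, read 1.44, 1.17, 1.62 and 2.17 in CON uteri at GD4.5, then -0.16, 0.46, 1.02 and 0.03 at GD5.5. Its arrays did not overlap, and the difference was -1.26 (SE 0.32, adjusted p = 0.00426 by limma), or 2.40-fold. The other probes of Csf1r differed by -1.41 and -0.59 between these days. Adgre1 read 1.94, 1.91, 1.91 and 3.66 at GD4.5, then -0.10, 1.10, 1.67 and -0.07 at GD5.5. Replicate 4 of GD4.5 stood far above the other CON arrays for this gene, and replicate 3 of GD5.5 came close to the lower arrays of GD4.5. Adgre1 fell by 1.71 on the log2 scale (SE 0.45, adjusted p = 0.00627 by limma), and by 1.27 without that replicate 4 (adjusted p = 0.0338 by limma). The second probe of Adgre1 was well above background on 4 of 4 CON arrays at GD4.5 and on none of the 4 at GD5.5, and was at least 1.73-fold higher at GD4.5. Such a bound sets the brighter mean against the lowest signal well above background on each array of the dimmer group.

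Mrc1 was the steadiest of the genes within groups. In CON uteri it read 0.97, 0.86, 0.80 and 0.78 at GD4.5, then -0.50, 0.10, 0.26 and -0.05 at GD5.5, a difference of -0.90 (SE 0.20, adjusted p = 0.002 by limma). Replicate 4 of GD4.5, the highest CON array of that day for the other 9 genes, was the lowest for Mrc1. Itgax read -1.36, -1.85, -0.90 and -0.26 at GD4.5, then -2.98, -2.67, -2.25 and -2.02 at GD5.5; the groups lay apart by a small gap. Its difference was -1.39 (SE 0.42, adjusted p = 0.0156 by limma). The second, dim probe of Itgax differed by -0.01 between the same days, so the probes of this gene disagree. Cd68 lay between 0.27 and 1.13 at GD4.5 and between -0.92 and 0.17 at GD5.5, a difference of -0.92 (SE 0.30, adjusted p = 0.0223 by limma).

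Ccr2 and Fcgr1 did not pass the test in CON uteri. Ccr2, the monocyte receptor, read -0.29, -0.42, -0.58 and 0.79 at GD4.5, then -0.54, -0.53, -0.59 and -0.11 at GD5.5. The Ccr2 groups overlapped, and the difference was -0.32 (95% interval -1.07 to 0.43, adjusted p = 0.575 by limma). The second, dim probe of Ccr2 differed by -0.35. Fcgr1 lay between 1.05 and 2.24 at GD4.5 and between 0.82 and 1.47 at GD5.5, a difference of -0.66 (95% interval -1.47 to 0.15, adjusted p = 0.224 by limma). The difference of its second probe was -0.17.

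All 4 slides that held CON arrays of both days gave lower levels at GD5.5. The median over the 10 genes was -0.63 on slide 5, -0.74 on slide 6, -1.42 on slide 7 and -1.96 on slide 8, and 10, 8, 10 and 10 of the genes were lower at GD5.5 on these slides. The count of genes that fell was 6 without replicate 4 of GD4.5 (median -1.09) or without replicate 1 of GD5.5 (median -1.16), and 7 without replicate 4 of GD5.5 (median -1.28). Cd68 lost its call in all 3 of these settings and with scaling to the 50th percentile, which moved the median of all genes to 0.12; Itgax lost it in the first and second and in a fit of GD4.5 and GD5.5 arrays alone.

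**Figure D2:**
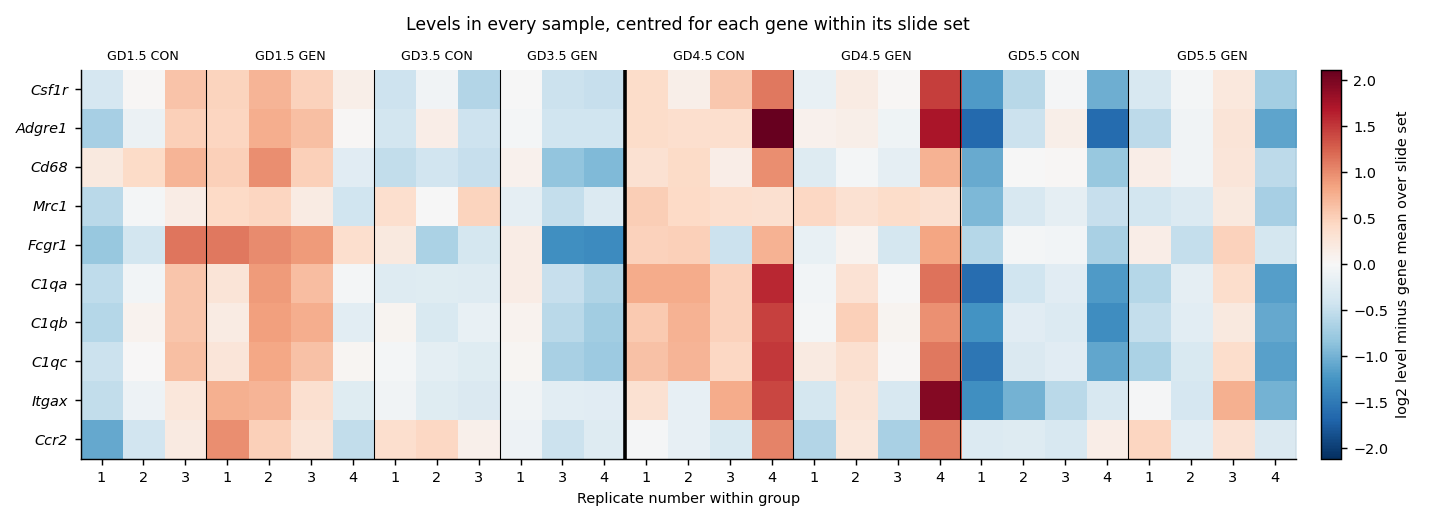
Level of each gene (rows) in each of the 29 arrays (columns, by group and replicate number), as the log2 level minus the gene's mean over its slide set (red above, blue below); the thick line separates the slide sets. Replicate 4 of GD4.5 in CON and in GEN is the darkest red column, and replicates 1 and 4 of GD5.5 in CON are the bluest.

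In GEN uteri 1 of the 10 genes fell over the same step, Mrc1. In this comparison 21.0% of 20938 genes were called, 8.66% as lower, and the median difference of all genes was 0.09 against -0.63 for the 10 genes. Mrc1 in GEN uteri read 0.88, 0.77, 0.84 and 0.78 at GD4.5, then 0.05, 0.16, 0.65 and -0.27 at GD5.5. The Mrc1 arrays of the 2 days did not overlap, as in 14.3% of all genes tested, and the difference was -0.67 (SE 0.20, adjusted p = 0.0239 by limma). Mrc1 lost this call without replicate 3 or 4 of GD4.5 GEN or replicate 1 or 4 of GD5.5 GEN, and with the slide as a fixed block (difference -0.53 to -0.84 over all settings, adjusted p up to 0.179 by limma).

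C1qa in GEN uteri read 2.24, 2.60, 2.28 and 3.44 at GD4.5, then 1.70, 2.11, 2.67 and 1.14 at GD5.5. Here the days overlapped, with replicate 3 of GD5.5 above 3 of the 4 arrays of GD4.5, and the difference was -0.73 (SE 0.36, adjusted p = 0.141 by limma). Adgre1 read 1.65, 1.67, 1.47 and 3.28 at GD4.5, then 1.00, 1.47, 1.82 and 0.43 at GD5.5, a difference of -0.84 (SE 0.45, adjusted p = 0.185 by limma). Csf1r read 0.90, 1.23, 1.07 and 2.51 at GD4.5, then 0.72, 1.01, 1.28 and 0.33 at GD5.5, a difference of -0.59 (SE 0.32, adjusted p = 0.179 by limma). For both receptors replicate 4 of GD4.5 stood far above the other GEN arrays of that day. The other genes differed by -0.85 (C1qc) to 0.06 (Ccr2), none of them past the test. The second, dim probe of Ccr2 gave 0.75 (SE 0.40) against 0.06 (SE 0.36) by the brightest, both positive. This dim probe was well above background on 3 of 4 GEN arrays at GD4.5.

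The count in GEN uteri moved with the processing and with single arrays. It was 5 after normexp background correction (Adgre1, C1qa, C1qb, C1qc and Mrc1), a setting that moved the median difference of all genes to 0.36, and 4 without replicate 3 of GD5.5 GEN (the C1q genes and Mrc1). It was 0 with the slide as a fixed block and without replicate 3 or 4 of GD4.5 GEN or replicate 1 or 4 of GD5.5 GEN. Without replicate 4 of GD4.5 GEN the median over the 10 genes was -0.32. On the slides that held GEN arrays of both days, the medians were -0.53 on slide 6 and -0.89 on slide 8, with 10 and 9 of the genes lower at GD5.5.

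Whether the step differed between exposures was tested directly, as the difference of the GEN effect at GD5.5 from that at GD4.5. None of the 10 genes passed (0.00444% of 22546 genes did, 1 gene), although by the brightest probe the step was less negative in GEN for all 10. The median difference was 0.78. For C1qa the difference was 1.05 (95% interval 0.01 to 2.09, unadjusted p = 0.0485, adjusted p = 0.685 by limma), and for Adgre1 0.87 (95% interval -0.45 to 2.19, adjusted p = 0.799 by limma). For Mrc1 it was 0.23 (95% interval -0.36 to 0.83, adjusted p = 0.891 by limma). Only the interval of C1qa left out 0. For most of the genes the interval also held a difference of about the size of the step itself. The second probe of Fcgr1 went the other way, with a step that was more negative in GEN. Its means at GD4.5 and GD5.5 were -0.62 and -1.40 in GEN, and -1.01 and -1.19 in CON.

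The order of the group means was the same in most genes. By the brightest probe, on slides 5 to 8, GD4.5 CON was the highest group and GD5.5 CON the lowest in 10 of 10 genes. The GEN groups lay between them. The order GD4.5 CON, GD4.5 GEN, GD5.5 GEN, GD5.5 CON held in 9, and in Ccr2 the GEN groups changed places. Neighbours in this order overlapped in every case but 1, Mrc1 between GD4.5 GEN and GD5.5 GEN. The genes are measured in the same samples, so their shared order counts once and not 10 times. Other probes did not all give this order. The second probe of Fcgr1 ran -0.62 in GD4.5 GEN, -1.01 in GD4.5 CON, -1.19 in GD5.5 CON and -1.40 in GD5.5 GEN. The second probe of Ccr2 was highest in GD5.5 GEN (-4.06) and lowest in GD4.5 GEN (-4.81). The dimmest probe of Csf1r was lowest in GD5.5 GEN (-4.50), and the second of Itgax in GD4.5 GEN (-4.11). The other probe of Csf1r kept the order, and that of Adgre1 was not well above background at GD5.5.

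**Figure D3:**
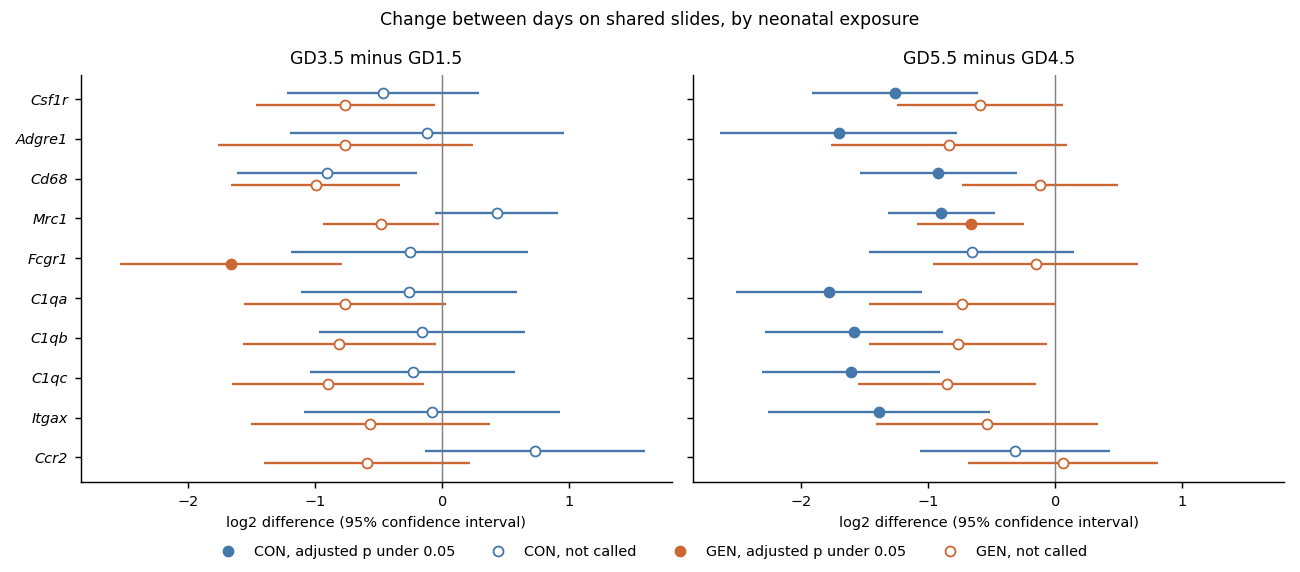
Log2 difference between days (horizontal axis, bars are 95% confidence intervals of the limma fit) for each gene in CON (blue) and GEN (orange); filled points have an adjusted p under 0.05. From GD4.5 to GD5.5, 8 CON points and 1 GEN point are filled, and from GD1.5 to GD3.5 only Fcgr1 in GEN.

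Levels within groups moved together from sample to sample. At GD4.5, replicate 4 of CON was the highest array of its group in 9 of 10 genes (median deviation 0.66 from the group mean) and replicate 4 of GEN in 9 of 10 (median deviation 0.77). Genes of leukocytes at large were also highest in these 2 samples: the log2 sum over 8 such genes (Ptprc, Coro1a, Lcp1, Cd52, Cd53, Cd48, Rac2 and Was) was 5.77 in CON replicate 4 against 4.25 to 4.59 in the other CON arrays, and 5.58 in GEN replicate 4 against 4.06 to 4.75. The sum over 10 genes of MHC class II presentation was 7.31 in CON replicate 4 against 4.67 to 5.32, and 7.22 in GEN replicate 4 against 4.36 to 4.94. The sum over 10 neutrophil genes was 6.84 in GEN replicate 4 and at most 2.95 in the other GEN arrays. At GD5.5 the leukocyte sum was 3.78 to 4.38 in CON and 3.91 to 4.79 in GEN, and the T cell sum 0.43 to 1.17 in CON against 0.75 to 2.51 at GD4.5. Their part in the results was not tested.

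Genes of the same pathways were read beside the 10. Over this step 14.0% of all genes tested were called as lower in CON and 8.66% in GEN. Of 9 ligands and chemokines, 4 fell and 1 rose in CON uteri from GD4.5 to GD5.5, with a median of -0.81. The chemokine genes Ccl8 (-2.43, SE 0.69) and Ccl12 (-1.81, SE 0.51) fell most, and Il34, the second ligand of the Csf1r receptor, fell by 1.42 (SE 0.24). Cx3cl1, the ligand of the fractalkine receptor, rose by 0.90 (SE 0.33). In GEN uteri 1 of 8 fell, Il34 at -1.29 (SE 0.24).

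Among 22 other myeloid receptors and regulators 11 fell and 0 rose in CON uteri (median -0.86). Fcgr4, an activating Fc receptor, differed by -1.96 (SE 0.62), the fungal glucan receptor Clec7a by -1.39 (SE 0.50), Csf2rb, the shared chain of the receptors for GM-CSF, interleukin-3 and interleukin-5, by -1.39 (SE 0.26) and the haemoglobin scavenger receptor Cd163 by -1.36 (SE 0.42). In GEN uteri 2 of 22 fell, Cd163 by 1.79 (SE 0.42) and Csf2rb by 1.02 (SE 0.26), where 8.66% of all genes were called as lower. The GEN difference of Csf2rb ran from -1.12 to -0.11 over the settings. Its call was lost with the mean of its probes and with the slide as a fixed block. Cd163 was called in both exposures, but after normexp both calls were lost and its GEN difference was 0.13.

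Of 16 effector genes of macrophages tested, 9 fell and 0 rose in CON uteri (median -1.08), led by the lipid carrier Apoe (-2.28, SE 0.35), the cytokine Il1b (-2.26, SE 0.79), Ms4a7 (-1.55, SE 0.47) and the lysosomal protease Ctss (-1.51, SE 0.46). In GEN uteri 1 of 16 fell, Apoe by 1.38 (SE 0.35). Of 14 dendritic cell genes tested, 9 fell and 0 rose in CON uteri (median -1.22). Cd83, a marker of mature dendritic cells, differed by -3.05 (SE 0.42) and the lectin gene Clec10a by -1.81 (SE 0.41). Cd209a, another lectin gene, was not well above background on any GD5.5 CON array and was at least 2.54-fold higher at GD4.5. Irf4, a factor of dendritic cell and lymphocyte development, was called as lower at GD5.5 (adjusted p = 0.0148 by limma), but was well above background on only 3 of 4 arrays at GD4.5 and 1 of 4 at GD5.5, so the size of its difference rests largely on signal near background.

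In GEN uteri 3 of 15 dendritic cell genes were called as lower and 1 as higher (median -0.61). Cd83 fell by 2.45 (SE 0.42) and the costimulatory gene Cd86 by 1.00 (SE 0.35). Cd209a was also called as lower, but was well above background on 3 of 4 arrays at GD4.5 and 1 of 4 at GD5.5. The size of the Cd209a difference thus rests largely on signal near background. Xcr1, a chemokine receptor of cross-presenting dendritic cells, rose by 0.79 (SE 0.24). Of the 10 genes of MHC class II presentation 8 fell and 0 rose in CON uteri (median -1.86): H2-Ab1 by 2.61 (SE 0.61), H2-Aa by 2.46 (SE 0.60) and the invariant chain Cd74 by 2.37 (SE 0.60). H2-Eb1 gave the largest difference at -3.68, with an SE of 1.39 and arrays spread from -2.29 to 3.84 at GD4.5. The H2-Eb1 call (adjusted p = 0.0491 by limma) was lost in 26 of 40 alternative settings, among them normexp and the replicate block. In GEN uteri 1 of 9 fell, H2-Oa by 1.72 (SE 0.46), with a median of -1.04.

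Of 8 classical complement genes beside C1q, 5 fell and 1 rose in CON uteri (median -0.67). C4b, the component cleaved after C1q binds, differed by -1.74 (SE 0.43), the central component C3 by -1.10 (SE 0.40), the C1 protease C1s1 by -0.94 (SE 0.28) and the C1 inhibitor Serping1 by -0.70 (SE 0.19). In GEN uteri 2 of 8 fell, C1s1 by 1.00 (SE 0.28) and C1ra, the other C1 protease, by 0.47 (SE 0.14). Of 8 genes of leukocytes at large 1 fell in CON uteri, Cd53, and 0 of 8 passed in GEN. Of other cell types in CON uteri, 5 of 8 eosinophil and mast cell genes and 2 of 9 neutrophil genes were called as lower. The counts were 2 of 8 for B cell and 0 of 7 for T cell genes, and 1 of 7 NK cell genes was called as higher. Medians in CON were -1.56 for eosinophil and mast cell genes (8 of 8 lower), -0.98 for T cells (7 of 7) and -0.64 for leukocytes at large (8 of 8). They were -0.57 for B cells (7 of 8 lower), -0.29 for neutrophils (5 of 9) and 0.49 for NK cells (2 of 7). Among tissue genes 4 of 7 of epithelium, 4 of 7 of smooth muscle, 2 of 7 of stroma and 2 of 6 of endothelium fell, while 1 of smooth muscle, 2 of stroma and 2 of endothelium rose. Tissue medians in CON were -1.07 for epithelium (7 of 7 lower) and -0.52 for smooth muscle (6 of 7). For stroma the median was 0.04 (3 of 7 lower) and for endothelium 0.08 (2 of 6). None of 7 adipocyte genes tested passed in either exposure, with medians of -2.14 in CON and -2.29 in GEN, both further from 0 than those of the 10 genes. The log2 sum over the 8 adipocyte genes ran from 0.98 to 4.66 in CON arrays of GD4.5, from 0.93 to 7.12 in GEN arrays of GD4.5, from 1.49 to 4.24 in CON at GD5.5 and from 1.04 to 2.11 in GEN at GD5.5. Its highest array was replicate 2 of GD4.5 GEN, and its lowest CON array of GD4.5 was replicate 4, the highest of that group in 9 of the 10 genes. The part of adipocyte RNA in the results was not tested.

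Of the 24 called genes of the pathway lists given above for CON uteri over this step, 11 kept the call under every setting run, among them Il34, Apoe, Cd83, Csf2rb, H2-Ab1, H2-Aa, Cd74 and C4b. The call was lost under some setting for the other 13, for 7 of them after normexp background correction. Of the 11 called in GEN uteri, Cd83 and Il34 kept the call under every setting. After normexp 3 of the GEN differences turned: Cd209a to 1.21 (adjusted p = 0.00256 by limma), Cd86 to 0.81 (adjusted p = 0.0381 by limma) and Cd163 to 0.13 (adjusted p = 0.717 by limma).

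**Figure D4:**
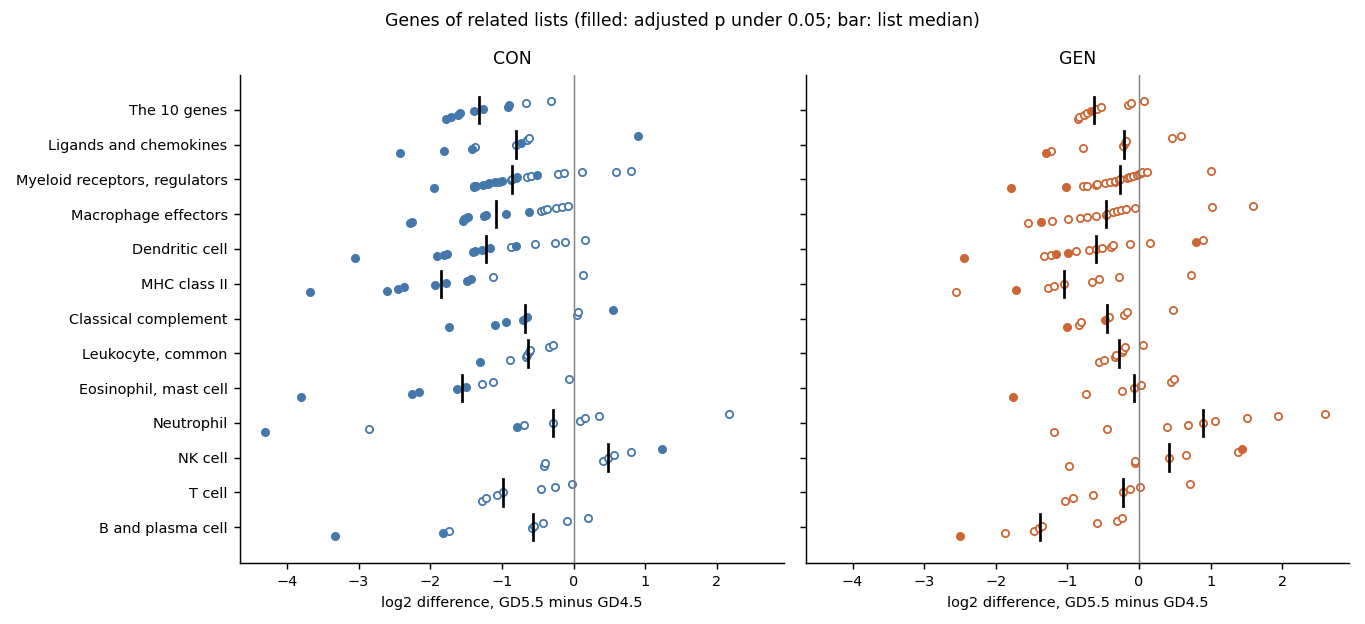
Log2 difference GD5.5 minus GD4.5 (horizontal axis) of each tested gene of the related lists (rows) in CON (left) and GEN (right); filled points have an adjusted p under 0.05 and the black bar is the list median. The 10 genes have a median of -1.32 in CON and -0.63 in GEN, and MHC class II has -1.86 and -1.04.

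Between GD1.5, shortly after mating, and GD3.5, before attachment, none of the 10 genes passed the test in CON uteri, and Fcgr1 alone fell in GEN uteri. In CON the median over the 10 genes was -0.20, and 2.33% of 20614 genes were called. The alternatives moved that median between -0.48 and 0.11. The CON values of C1qa were 2.76, 3.24 and 3.88 at GD1.5 and 3.03, 3.04 and 3.02 at GD3.5. The GD3.5 arrays of C1qa were nearly equal and lay within the range of GD1.5. Cd68 was the only gene of the 10 whose CON arrays did not overlap, at 0.91, 1.10 and 1.42 and then 0.18, 0.30 and 0.22, a difference of -0.91 (SE 0.34, adjusted p = 0.195 by limma); 23.0% of all genes had arrays that did not overlap. Ccr2 (0.73) and Mrc1 (0.43) were higher at GD3.5 in CON, neither past the test.

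In GEN uteri all 10 genes were lower at GD3.5 than at GD1.5, with a median of -0.77 against 0.01 over all genes, and 1 of 10 fell where 4.77% of 20393 genes were called, 2.34% as lower. Fcgr1, the IgG receptor, read 3.32, 3.19, 3.11 and 2.56 at GD1.5 and 2.35, 0.91 and 0.87 at GD3.5 (replicates 1, 3 and 4). The groups did not overlap, as in 28.4% of all genes, though replicate 1 of GD3.5 lay close to the lowest array of GD1.5. Fcgr1 fell by 1.67 on the log2 scale (SE 0.42, adjusted p = 0.0223 by limma), 3.18-fold, and its second probe differed by -2.13 (SE 0.58). The call was lost in a fit of the arrays of the 2 days alone and without replicate 1 or 2 of GD1.5 GEN or replicate 3 or 4 of GD3.5 GEN, with differences of -1.41 to -2.15 and an adjusted p up to 0.163 by limma.

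The other GEN differences over this step ran from -0.998 (Cd68, SE 0.32, adjusted p = 0.0777 by limma) to -0.48 (Mrc1, SE 0.22, adjusted p = 0.237 by limma). Cd68 passed the test without replicate 4 of GD1.5 GEN or replicate 1 of GD3.5 GEN, which made the count 2. On slides 1 to 3, which held GEN arrays of both days, the medians were -0.79, -1.09 and -0.73, with 10 of 10 genes lower on each. Only slide 1 held CON arrays of both days, with a median of 0.42. Genes of other cells were lower over this step too. In GEN uteri the median was -3.00 over 7 adipocyte genes (7 lower, 0 called), -1.84 over 9 neutrophil genes (7 lower, 1 called, Cxcr2), -1.20 over 7 eosinophil and mast cell genes (6 lower, 1 called, Tpsab1) and -0.65 over 8 genes of leukocytes at large (8 lower, 0 called), while 4 of 7 NK cell genes and 3 of 6 endothelial genes rose. In CON uteri the neutrophil median was -1.68, the adipocyte median -0.13 and that of leukocytes at large 0.32. The adipocyte sum ran from 1.45 to 5.46 in GEN arrays of GD1.5 and from 0.38 to 1.87 at GD3.5, and the neutrophil sum had a mean of 7.41 at GD1.5 (highest array 8.07) and 4.03 at GD3.5 (3.25 to 5.27). Their part in the lower levels of the 10 genes was not tested.

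The GEN effect did not pass the test for a difference between GD1.5 and GD3.5 in any of the 10 genes, nor in any of the 21062 genes tested (0.00%; 485 at an unadjusted p under 0.05 by limma). The difference was negative in all 10, with a median of -0.65. It was -0.91 for Mrc1 (SE 0.32, unadjusted p = 0.00943), -1.32 for Ccr2 (SE 0.57, unadjusted p = 0.0302) and -1.41 for Fcgr1 (SE 0.62, unadjusted p = 0.0322), each with an adjusted p of 1.00 by limma. In the order of group means on slides 1 to 4, GD1.5 GEN was highest in 8 of 10 genes and GD3.5 GEN lowest in 7.

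From GD1.5 to GD3.5, 4.77% of all genes tested were called in GEN uteri, 2.34% as lower, and 2.33% were called in CON. Of the pathway genes, 4 of 22 receptors and regulators fell in GEN uteri over this step: the sialic acid receptor Siglec1 (-1.94, SE 0.40), the scavenger receptor Msr1 (-1.93, SE 0.48), the integrin Itgam (-1.37, SE 0.35) and Spi1 (-1.35, SE 0.35), which encodes PU.1. The effectors Tnf (-1.68, SE 0.46) and Lgmn (-1.25, SE 0.22) fell, 2 of 17 tested, as did Il34 (-1.09, SE 0.25), 1 of 9 ligands, and Cd40 (-1.24, SE 0.26), 1 of 15 dendritic cell genes. Cd93 rose by 0.65 (SE 0.14), 1 of 8 complement genes. None of the 10 MHC class II genes passed, with a median of -0.84. Of these 9 called genes Lgmn and Cd93 kept the call under every setting run; the other 7 lost it under some setting, 4 of them after normexp (Cd40, Tnf, Itgam and Spi1). In CON uteri C1s1 rose by 1.28 (SE 0.32), and the elastase gene Mmp12 was at least 4.15-fold higher at GD1.5 than at GD3.5, where it was not well above background on any of 3 arrays. After normexp the Mmp12 difference was 0.03 and not called, and the C1s1 call was lost too. No gene of the lists of ligands, receptors, dendritic cells or MHC class II passed in CON.

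Genistein against corn oil on the same day gave no call among the 10 genes on any of the 4 days or on their average, under any setting run. Of all genes, 0.0975% were called at GD1.5, 0.103% at GD3.5, 0.116% at GD4.5, 0.00% at GD5.5 (0 of 20826; 1101 at an unadjusted p under 0.05 by limma) and 1.00% on the average of 4 days. The median GEN minus CON difference over the 10 genes was 0.42 at GD1.5, -0.18 at GD3.5, -0.28 at GD4.5, 0.39 at GD5.5 and 0.07 on average. By the brightest probe the difference was positive in 9, 2, 0 and 10 of the genes on the 4 days in turn. The second probe of Fcgr1 was higher in GEN at GD4.5 (-0.62 against -1.01 in CON) and lower at GD5.5 (-1.40 against -1.19). At GD5.5 the dimmest probe of Csf1r and the second of Itgax were lower in GEN too. Markers of other cells were also higher in GEN at GD1.5, with medians of 2.41 over 8 adipocyte genes (8 higher), 2.06 over 9 neutrophil genes (9 higher), 1.42 over 8 B cell genes (8 higher), 0.66 over 8 genes of leukocytes at large (8 higher) and 0.50 over 7 T cell genes (7 higher), none of them called. Eosinophil and mast cell genes had a median of -1.78 that day, and at GD3.5 the mast cell tryptases Tpsab1 and Tpsb2 were called as lower in GEN. Genes of leukocytes at large differed by a median of -0.39 at GD3.5, -0.09 at GD4.5 and 0.26 at GD5.5, the same signs as the 10 genes. The part of these cells in the differences was not tested. These directions come from the same samples for all 10 genes, and on the slides that held both exposures the median ran from 0.34 to 1.35 at GD1.5 (2 slides), -0.48 to 0.05 at GD3.5 (2), -1.43 to -0.03 at GD4.5 (3) and 0.05 to 1.21 at GD5.5 (3).

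Mrc1 at GD3.5 had the smallest p among the 10. It read 1.06, 0.70 and 1.16 in CON and 0.52, 0.19 and 0.41 in GEN. The groups did not overlap, as in 20.3% of all genes that day, and the difference was -0.60 (95% interval -1.08 to -0.11, unadjusted p = 0.0182, adjusted p = 0.697 by limma). Ccr2 at GD3.5 did not overlap either, at 0.54, 0.64 and 0.30 in CON and 0.09, -0.27 and -0.08 in GEN, a difference of -0.58 (95% interval -1.44 to 0.28, adjusted p = 1 by limma). At GD1.5 Fcgr1 read 1.40, 1.81 and 3.32 in CON and 3.32, 3.19, 3.11 and 2.56 in GEN, so the highest CON array lay level with the highest of GEN. Its difference has a 95% interval of -0.01 to 1.74. Ccr2 was 0.74 higher in GEN at GD1.5 by its brightest probe (SE 0.39) and 0.94 by its second (SE 0.43).

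The C1q genes showed how wide the spread was for exposure. For C1qa the GEN minus CON difference was 0.45 at GD1.5 (95% interval -0.34 to 1.25), -0.05 at GD3.5 (-0.90 to 0.80), -0.57 at GD4.5 (-1.31 to 0.16) and 0.48 at GD5.5 (-0.26 to 1.21). Csf1r gave 0.36 (-0.35 to 1.06), 0.06 (-0.69 to 0.81), -0.17 (-0.82 to 0.48) and 0.50 (-0.15 to 1.15) on the same days. All of these intervals include 0, and their width shows how large a difference these numbers of arrays could have missed. At GD1.5 replicate 1 of CON was the lowest and replicate 3 the highest of their group in 10 of 10 genes, and replicate 4 of GEN was the lowest of its group in 10 of 10.

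**Figure D5:**
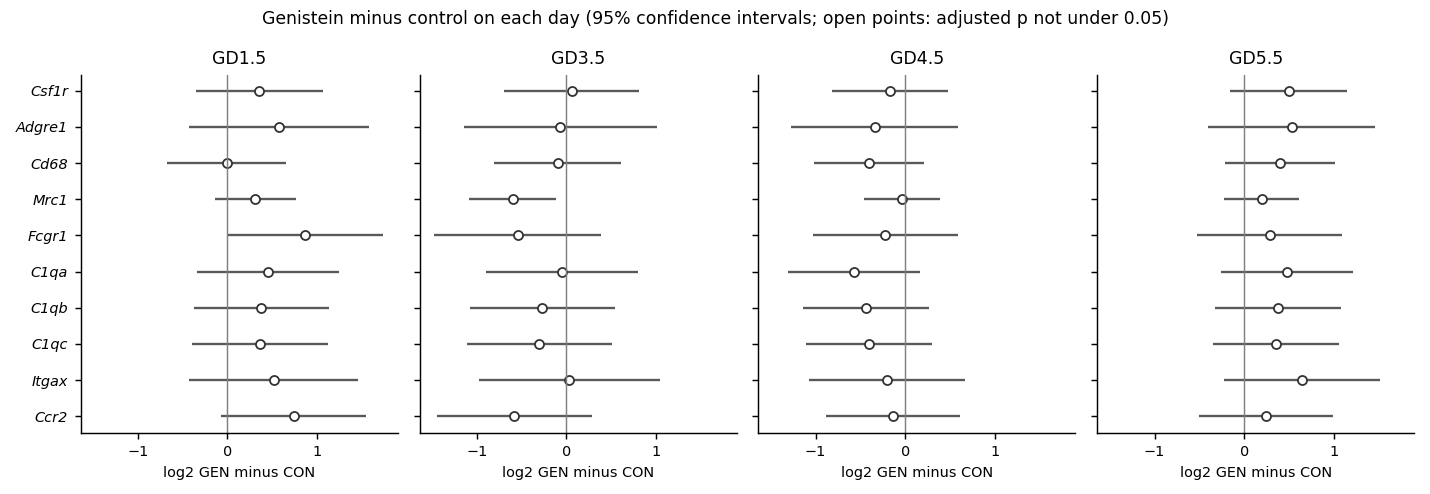
GEN minus CON log2 difference of each gene (horizontal axis) on each gestation day, with 95% confidence intervals of the limma fit; open points have an adjusted p of 0.05 or more. All points are open, with medians of 0.42, -0.18, -0.28 and 0.39 from GD1.5 to GD5.5, and the intervals of all but Mrc1 at GD3.5 include 0.

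The pathway lists gave 1 call for exposure on the single days. Mmp12, a macrophage elastase, was at least 2.74-fold higher in GEN than in CON at GD3.5. It was well above background on 3 of 3 GEN arrays and 0 of 3 CON arrays. Mmp12 thus entered the test through its GEN arrays alone. The call rests on CON signal not well above background, so its p-value is not given. After normexp the difference turned to -0.15 (adjusted p = 0.967 by limma), and the call was also lost with the slide as a fixed block and in a fit of GD3.5 arrays alone. No gene of the lists of ligands, receptors, dendritic cells, MHC class II and complement was called on any day. At GD1.5 all 9 ligands and chemokines and all 10 MHC class II genes were higher in GEN, with medians of 0.67 and 0.79; their widest differences, Ccl7 at 1.85 (SE 0.66, adjusted p = 0.548 by limma) and H2-Eb1 at 1.84 (SE 1.51, adjusted p = 1.00 by limma), did not pass. At GD5.5 the ligand Ccl12 differed by 1.39 (SE 0.51, adjusted p = 0.715 by limma) and H2-Eb1 by 3.70 (SE 1.39, adjusted p = 0.734 by limma).

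The 10 genes varied among themselves in how closely they went together. Across the 13 arrays of GD1.5 and GD3.5 and, separately, the 16 of GD4.5 and GD5.5, Pearson's r was taken for each pair and the smaller of both values kept as a description, the points sharing their arrays and scaling. C1qa and C1qc had 0.972 and C1qb and C1qc 0.972, Csf1r and Adgre1 0.948, and Cd68 and Csf1r 0.870. Itgax was most like Adgre1 (0.842), Fcgr1 most like C1qa (0.802), Ccr2 most like Itgax (0.763) and Mrc1 most like C1qb (0.683). The least alike pair was Ccr2 and Mrc1, at 0.154.

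By the same measure, 13447 named genes well above background on all arrays were set against the mean of the 10. The median gene had -0.456 and the 95th percentile was 0.544. The 10 most alike were Tnfaip8l2 (0.984), Pld4 (0.976), Marchf1 (0.968), Evi2a (0.964), Nckap1l (0.962), Cd53 (0.960), Tbxas1 (0.956), Clec4a3 (0.955), C4b (0.953) and Aif1 (0.952). Of these, C4b is on the complement list, Aif1 on the effector list and Cd53 on the leukocyte list.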

How the data were processed

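Uterine RNA was measured on 29 one-colour arrays. Per the file headers, the deposited value is the intensity of each spot after background subtraction and detrending by Agilent Feature Extraction 9.5, as the submitters' processing notes also name; the series table that the authors deposited holds the same intensity values, with 0 per-sample columns unused. Here log2 intensities were scaled to each array's 75th percentile of non-control spots (734 to 1840 intensity units), and 65.5 to 80.9% of spots per array were well above background. Probes were named through RefSeq by accession (9 of the 16 probes of these genes) or symbol (7), and spots that repeat a probe were averaged. Group means of all 29 arrays were fitted with limma 3.58.1 (R 4.3.3, statmod 1.5.0; the package data.table at version 1.17.8; Python 3.11.15), with Benjamini-Hochberg adjustment over the genes whose probe passed the scanner's background test on 3 or more arrays of the compared groups. Calls are at adjusted p below 0.05. There were 11 comparisons: GEN against CON on 4 days and on average, 4 steps between days and 2 tests of a change in effect. The fit was tested on simulated data, and the outcome of that test is not given here.

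The 10 genes and all lists were chosen with earlier results of these data known; 1 gene of the list of myeloid receptors and regulators is not reported here and is in none of the list counts. Named by rule were all 10 genes, up to 4 called genes per list and comparison by size (with no call, at most 2), and the 10 genes most like the mean of the 10. The number of arrays limits precision. Same-numbered CON and GEN samples deviated together only at GD5.5 (r = 0.25 to 0.51 in 4 of 4 pairs; -0.27 to 0.24 on the other days), where the number was taken as pairing them from the data alone, since the labels state no pairing; 3 of these 4 pairs also share a slide (r of 0.36 or more, against 0.25 in the pair that does not). Alternatives were normexp background correction, quantile normalization, the 50th percentile, 2 filters on dim probes, the mean of a gene's probes, slide and replicate blocks, a trended robust variance, fits of single days' arrays and leaving out each array. The change from GD3.5 to GD4.5 was left out.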

Additional observations from a re-analysis of the deposited data

Results flagged for a closer look

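Of 50 sets of 4 arrays (a gene in a group), 3 held an array whose gap to its neighbour passed Dixon's 95% critical value; chance gives about 1 in 20. Adgre1 in replicate 4 of GD4.5 CON was 3.66, with a gap over range of 0.985, and in replicate 4 of GD4.5 GEN 3.28 (0.885). Ccr2 in replicate 4 of GD5.5 CON was -0.11 (0.866), above its group. In CON uteri the Adgre1 step to GD5.5 was -1.27 without the first of these arrays and -1.71 with it.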

How the results depend on the processing

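Of 440 counts of called genes recomputed under alternatives, 426 stayed within 1.5 times the reported count, and the medians over the 10 genes moved by less than the spread within groups (0.50) in all 440. Many of these medians could not move, since leaving out an array of a group not compared leaves the difference as it was. Most comparisons had a count of 0 in every setting. A move of less than 0.50 can also turn a sign, as for GD1.5 to GD3.5 in CON, where the median ran from -0.48 to 0.11. The counts that changed were those of GEN uteri. From GD1.5 to GD3.5 the count of 1 became 0 in a fit of these days' arrays alone and 0 to 2 on leaving out one array; from GD4.5 to GD5.5 the count of 1 became 5 after normexp, 0 with the slide as a fixed block and 0 to 4 on leaving out one array. The count of 8 in CON uteri stayed between 6 and 8, and the count of 0 for exposure stayed 0.

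Of 110 differences of single genes, 29 changed sign under some setting, none of them called in either fit (lowest adjusted p 0.802 by limma). Among the values reported, C1qa at GD3.5 (GEN minus CON) became 0.00057 after normexp, 0.0049 with quantile normalization, 0.019 with the replicate block and -0.29 to 0.11 on leaving out one array. Csf1r at GD3.5 became -0.12 with the slide as a fixed block and -0.094 to 0.21 on leaving out one array, and at GD4.5 it ran from -0.53 to 0.020. Ccr2 from GD4.5 to GD5.5 in GEN ran from -0.16 to 0.41.

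With the replicate number as a block no call among the 10 genes changed: 8 fell in CON and 1 in GEN from GD4.5 to GD5.5, and 0 were called for exposure. With that block on the GD5.5 arrays alone, a fit chosen after seeing the data, 0 were called and the median was 0.39. The second probe of Adgre1 was not well above background at GD5.5, so it gives only a bound there, and the numbers of arrays, 3 or 4 a group, limit the rest.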
